A study of Homo sapiens with 8 samples.

Results

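The genes described here are 5 chemokines of the CXC family (CXCL1, CXCL2, CXCL8, CXCL10 and CXCL11), the CC chemokine CCL5, the cytokine IL6, complement factor B (CFB) and the NF-kB inhibitor NFKBIA. They are the probe sets whose annotation holds exactly 1 gene symbol and that symbol is among these 9 names. Each gene has 1 probe set, so the set is 9 of 7840 probe sets with a single symbol, and all 9 passed the filter on low values. The names were picked with their plasmid changes in these same arrays known. The change from vector to HSD17B14 is therefore given for them as a description without a test. What was tested for the 9 genes is the difference between the lines in the vector arrays. The other genes of the pathways were tested too, but their lists were chosen with earlier results of these data known. The plasmid counts of these lists are therefore a description and no independent support. The difference between the lines in the HSD17B14 arrays holds the plasmid changes, so its p-values are a description only.

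The study asked what the enzyme HSD17B14, a hydroxysteroid dehydrogenase, changes in breast cancer cells. Its 8 Affymetrix arrays measured messenger RNA in 4 groups of 2: ZR75-1 cells (ER +) given an HSD17B14 plasmid, ZR75-1 cells given the vector without the insert, and the same pair in cells labelled SKBR3 (ER -). FuGene-6 carried the plasmid or vector into the cells of all groups 24 h after they were seeded. All groups grew in phenol-red free medium with 4% serum, and were harvested 48 h after transfection, so the vector arrays are mock-transfected and none of the 8 is from untransfected cells. Whether the duplicates came from separate cultures is not stated. The p-values then rest on the scatter between duplicate arrays, which may be technical and limits the precision. The fit pools this scatter over the 4 groups and draws it towards a trend over all tested probe sets. A standard error (SE) below is therefore not the spread of a single group. The share of cells that took up plasmid is not given in the sources used here, and in bulk RNA fewer expressing cells and less RNA per cell cannot be told apart.

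Chemokines are small secreted proteins that draw leukocytes along a gradient. CXCL1, CXCL2 and CXCL8 attract neutrophils through CXCR2 and, for CXCL8, also CXCR1. CXCL10 and CXCL11 attract activated T cells and NK cells through CXCR3, and CCL5 attracts T cells and monocytes, among others through CCR1. NF-kB is held in the cytoplasm by inhibitors such as NFKBIA. Signals from TNF, IL1 or Toll-like receptors destroy the inhibitor, and NF-kB then binds kappa-B sites in genes that include CXCL1, CXCL2, CXCL8, IL6 and NFKBIA itself. Interferons switch on genes that carry interferon-stimulated response elements (ISRE), and CXCL10 and CXCL11 are classical targets. CCL5 and CFB are known to respond to both pathways. These 3 classes, NF-kB-driven (5 genes), interferon-driven (2) and responsive to both (2), are used below.

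The windows upstream of the genes are shown because the 2 pathways act through such sites. The classes themselves were taken from general knowledge and not from these windows. RefSeq windows on GRCh38.p14 were matched for 8 of the 9 genes, all but CCL5, and each covers the 250 bases before the gene start. Positions are counted back from the start, so that -1 is the base before it. Motifs were searched on both strands: a kappa-B core (GGNNNTTCC), a longer kappa-B consensus that overlaps it at most places, and an ISRE core (GAAA, any 2 bases, GAAA). In the sequences, capitals mark matches to the kappa-B core or the ISRE core on either strand. Of the windows that held an ISRE core, that of CXCL10 (chr4:76023498-76023747, minus strand) has it at -221 to -212, upstream of 3 kappa-B cores.
CXCL10: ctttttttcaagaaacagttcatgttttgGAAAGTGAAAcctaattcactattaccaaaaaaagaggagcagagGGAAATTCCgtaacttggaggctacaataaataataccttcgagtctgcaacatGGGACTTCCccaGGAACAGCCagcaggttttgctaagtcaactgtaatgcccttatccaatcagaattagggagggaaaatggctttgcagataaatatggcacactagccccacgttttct
The window of CFB (chr6:31945845-31946094, plus strand) has the ISRE core at -140 to -131 and a kappa-B core at -97 to -89.
CFB: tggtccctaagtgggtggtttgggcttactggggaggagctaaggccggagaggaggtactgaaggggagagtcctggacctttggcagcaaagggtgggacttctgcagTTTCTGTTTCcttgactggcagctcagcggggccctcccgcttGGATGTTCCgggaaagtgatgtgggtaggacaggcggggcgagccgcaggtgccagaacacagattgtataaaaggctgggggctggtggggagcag
The windows of IL6 (chr7:22726950-22727199, plus strand) and CXCL8 (chr4:73740319-73740568, plus strand) each hold a kappa-B core, at -72 to -64 and at -91 to -83, and no ISRE core.
IL6: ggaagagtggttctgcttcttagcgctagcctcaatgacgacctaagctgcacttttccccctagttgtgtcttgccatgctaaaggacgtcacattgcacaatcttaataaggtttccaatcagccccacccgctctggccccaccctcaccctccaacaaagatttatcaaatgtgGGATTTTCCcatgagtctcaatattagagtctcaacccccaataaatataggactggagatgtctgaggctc
CXCL8: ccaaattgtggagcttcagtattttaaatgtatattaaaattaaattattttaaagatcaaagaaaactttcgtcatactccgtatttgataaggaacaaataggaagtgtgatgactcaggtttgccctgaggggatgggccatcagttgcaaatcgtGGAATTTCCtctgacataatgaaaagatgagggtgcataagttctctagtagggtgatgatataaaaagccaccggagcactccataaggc

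One stretch around a kappa-B core of each remaining gene is shown for comparison, from chr4:73869300-73869338 (CXCL1, plus strand), chr4:74099249-74099287 (CXCL2, minus strand), chr4:76036122-76036160 (CXCL11, minus strand) and chr14:35404807-35404845 (NFKBIA, minus strand).
CXCL1: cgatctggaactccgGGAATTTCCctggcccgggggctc
CXCL2: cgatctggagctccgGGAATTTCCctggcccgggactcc
CXCL11: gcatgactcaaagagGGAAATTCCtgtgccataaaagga
NFKBIA: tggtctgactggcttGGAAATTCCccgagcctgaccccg
CXCL1, CXCL2 and NFKBIA each have a further kappa-B core that is not shown. The cores shown start at -78, -77 and -81, and the others at -53, -53 and -242. CXCL1 and CXCL2 carry the same core in the stretches shown, and their windows share a further unbroken run of 42 bases from -57 to -16. The kappa-B core was in all 8 windows, against 17.1% of the 35114 RefSeq windows of that length. The longer consensus was in 7 of 8 windows, all but that of CXCL8, against 9.96%. The ISRE core was in 2 of 8, CXCL10 and CFB, against 3.02%. A match is a description of letters and not evidence of binding, and no match in 250 bases says nothing of sites elsewhere. The letters therefore separate CXCL10 and CFB from the others. They do not separate CXCL10 from CFB, which both hold ISRE and kappa-B cores, or CXCL11 from the NF-kB-driven genes.

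**Figure D1:**
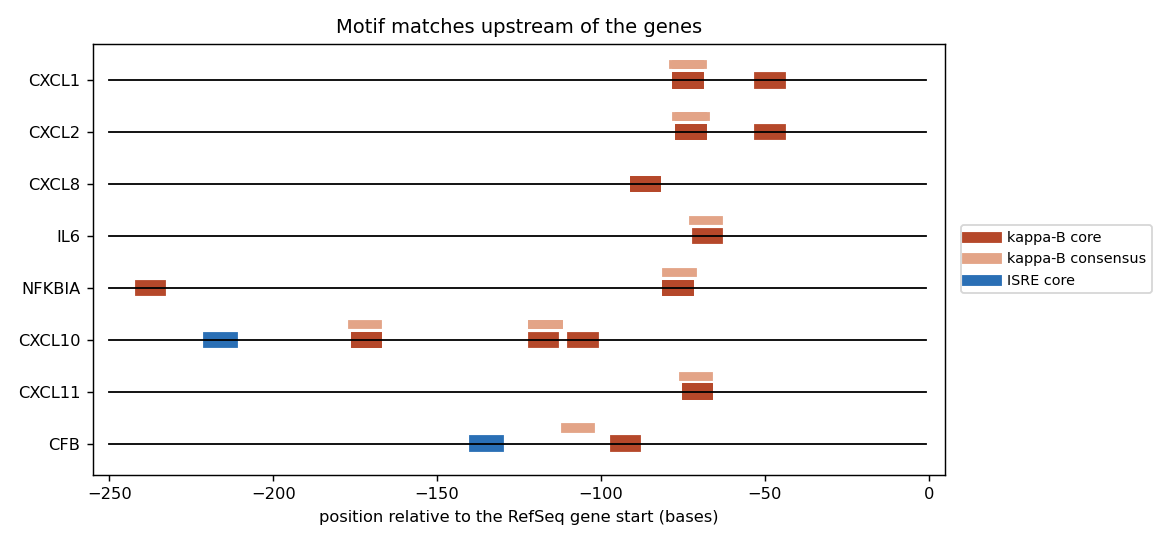
Positions of motif matches in the 250 bases upstream of 8 genes, in bases from the RefSeq gene start (x axis), with a row per gene. Dark orange boxes are kappa-B cores, pale boxes the longer consensus and blue boxes ISRE cores. Blue boxes appear for CXCL10 and CFB, and each gene has at least 1 dark orange box.

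HSD17B14 itself followed the plasmid, with signals of 107.5 and 135.3 against 17.8 and 2.1 in ZR75-1 and of 650.7 and 743.6 against 2.0 and 4.2 in the cells labelled SKBR3. The labels were borne out only in part for the second line. ESR1, the estrogen receptor gene, went with the ER labels, at 14.9 to 24.6 there and 194.5 to 341.6 in ZR75-1. GATA3, the other line marker, had 284 to 416.4 there and 1220.8 to 1638.8 in ZR75-1. ERBB2, a gene known to be amplified in SKBR3, had signals of 25.9 to 46.8 there and of 95.9 to 226 in ZR75-1. Because of ERBB2 the text writes SKBR3-labelled. Leukocyte markers were low: 3 of the 8 on the array exceeded a signal of 17.6 on any array and 0 on all, and PTPRC (CD45) reached 16.2 at most. Their summed signal was 48.9 to 111.1 in ZR75-1 with HSD17B14, 57.2 to 87.0 with vector, 49.8 to 52.5 in SKBR3-labelled cells with HSD17B14 and 65.5 to 87.1 with vector. The floor of 17.6 is the highest of the arrays' 40th percentiles and stands in for a detection call.

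Among the NF-kB-driven ligands, CXCL8 was well above the floor in one line only. Its signals were 128.9 and 219.2 in SKBR3-labelled cells with vector and 330.2 and 336 with HSD17B14. In ZR75-1 they were 0.6 and 0.5 with vector and 1.1 and 0.8 with HSD17B14. No ZR75-1 array came near the floor, and in the SKBR3-labelled cells both arrays with HSD17B14 lay above both controls. The log2 change there was 0.99 ± 0.62 (SE, n = 2 arrays per group, as for all changes below), and it ran from 0.60 without vector array 1 to 1.37 without vector array 2.

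CXCL2 showed the same order of groups. Its signals were 45 and 59.3 with vector and 211.7 and 177.7 with HSD17B14 in SKBR3-labelled cells, a log2 change of 1.91 ± 0.56 or 3.75-fold. In ZR75-1 they were 2.2 and 0.8 with vector and 13.9 and 11.9 with HSD17B14. The groups did not overlap in either line, but all 4 ZR75-1 signals lay under the floor. The fitted log2 change of 3.12 ± 0.56 in ZR75-1 is therefore no measured fold, and it became 0 with values raised to the floor. The CXCL2 probe set is of a kind (x_at) that can bind related transcripts, and CXCL1 and CXCL3 are close relatives.

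CXCL1 stood out on 2 arrays only. Its signals were 66.9 and 82.6 in SKBR3-labelled cells with HSD17B14, against 12.9 and 21.5 with vector. In ZR75-1 they were 11.7 and 19.3 with HSD17B14 and 15.2 and 24.4 with vector. The other 3 groups overlapped each other around the floor. The log2 change was 2.16 ± 0.52 in SKBR3-labelled cells (4.46-fold) and -0.36 ± 0.52 in ZR75-1.

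IL6, the cytokine that signals through IL6R and IL6ST, was higher with HSD17B14 in both lines. In SKBR3-labelled cells its signals went from 53.8 and 63.9 to 153.1 and 153.3 (log2 change 1.39 ± 0.32, 2.61-fold). In ZR75-1 they went from 12.6 and 19.2 to 48.1 and 61.8 (1.81 ± 0.32, 3.51-fold). The ZR75-1 arrays with HSD17B14 reached the level of the SKBR3-labelled vector arrays, with which they overlapped. On the log2(value + 32) scale the ZR75-1 change was 0.86.

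NFKBIA, the inhibitor in the same feedback loop, differed from vector in opposite directions in the lines. Its signals were 475.8 and 540.4 with HSD17B14 against 315.5 and 274.9 with vector in SKBR3-labelled cells (0.78 ± 0.16, 1.72-fold). In ZR75-1 they were 648.3 and 841.8 with HSD17B14 against 879.8 and 971.5 with vector (-0.32 ± 0.16). No groups overlapped, and all 8 signals were far above the floor. The ZR75-1 change ran from -0.14 without HSD17B14 array 1 to -0.51 without HSD17B14 array 2.

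Of the interferon-driven ligands, CXCL10 had 4 separate levels. Its signals were 28.3 and 34.2 in SKBR3-labelled cells with vector, 104.6 and 156.2 in ZR75-1 with vector, 250.2 and 225.9 in SKBR3-labelled cells with HSD17B14, and 473 and 394.9 in ZR75-1 with HSD17B14. No neighbouring groups in this order overlapped. The log2 change was 2.93 ± 0.22 in SKBR3-labelled cells (7.64-fold) and 1.76 ± 0.22 in ZR75-1 (3.38-fold).

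CXCL11, which shares the receptor CXCR3, did not follow CXCL10. Its signals were 24.1 and 7.1 with vector and 26 and 16.7 with HSD17B14 in SKBR3-labelled cells. In ZR75-1 they were 15 and 38 with vector and 38.9 and 27.3 with HSD17B14. Every group overlapped its neighbour in level, and 1 of the 2 arrays lay under the floor in 3 of the 4 groups. The log2 changes were 0.67 ± 0.70 and 0.45 ± 0.70, neither larger than its error.

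The genes that answer to both pathways parted from each other. CCL5 was higher in ZR75-1, with signals of 124.6 and 136 with vector and 278.8 and 255.4 with HSD17B14 (1.04 ± 0.32, 2.05-fold). In SKBR3-labelled cells it had 31.1 and 16.3 with vector and 22.2 and 19.7 with HSD17B14 (-0.11 ± 0.32), and these groups overlapped. CFB, the serine protease of the alternative complement pathway, was low with vector and similar in both lines with HSD17B14. Its signals went from 7.5 and 5.6 to 81.9 and 59 in SKBR3-labelled cells, at least 3.95-fold higher. In ZR75-1 they went from 4.5 and 20.2 to 98.8 and 66.3, a log2 change of 3.09 ± 0.67. That value was 2.0 without vector array 1 and 4.17 without vector array 2.

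**Figure D2:**
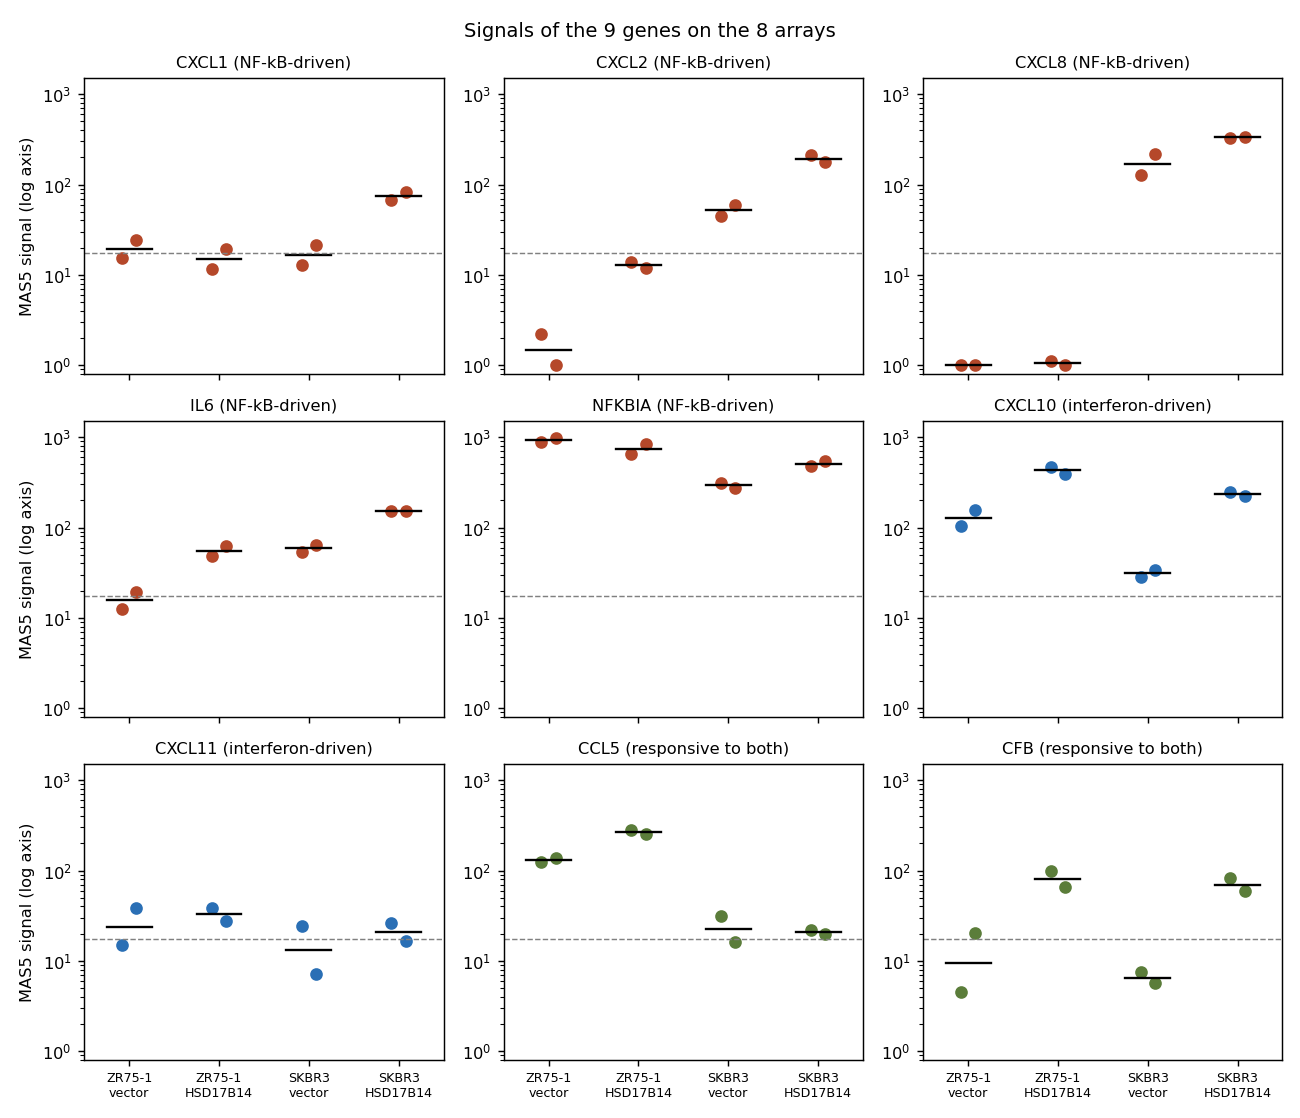
MAS5 signal on a log axis for each of the 9 genes, by group (x axis), with a point per array and a bar at the mean of the 2 log2 values; values below 1 are drawn at 1 and the dashed line is the floor of 17.6. CXCL8 lies at the bottom in ZR75-1 and above 100 in the SKBR3-labelled cells, CCL5 is highest in ZR75-1, and CFB is above the floor on all 4 HSD17B14 arrays.

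The classes are set side by side as a description. In SKBR3-labelled cells all 5 NF-kB-driven genes had both HSD17B14 arrays above both controls, with a median log2 change of 1.39 (range 0.78 to 2.16). In ZR75-1, 3 of the 5 did (IL6, CXCL2 and CXCL8), and CXCL2 and CXCL8 lay under the floor throughout, while NFKBIA went the other way (median 0.07, range -0.36 to 3.12). Of all 9 genes, 7 were higher without overlap in SKBR3-labelled cells, where 19.5% of the 6251 tested probe sets were. In ZR75-1, 6 were higher and 1 lower without overlap, where 20.7% and 26.3% of probe sets were. In both lines 5 were higher (CXCL2, CXCL8, IL6, CXCL10 and CFB), as were 4.82% of probe sets. None was lower in SKBR3-labelled cells, where 20.6% were. Nothing is read from these counts, since the genes were chosen on these changes. The median log2 change over all tested probe sets was -0.01 in SKBR3-labelled cells and -0.04 in ZR75-1.

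The change in ZR75-1 minus that in SKBR3-labelled cells was -2.52 ± 0.74 for CXCL1, -1.18 ± 0.31 for CXCL10, -1.11 ± 0.23 for NFKBIA and 1.14 ± 0.45 for CCL5. It was 0.42 ± 0.45 for IL6 and -0.34 ± 0.94 for CFB, both smaller than their errors. These differences carry no test for the same reason.

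**Figure D3:**
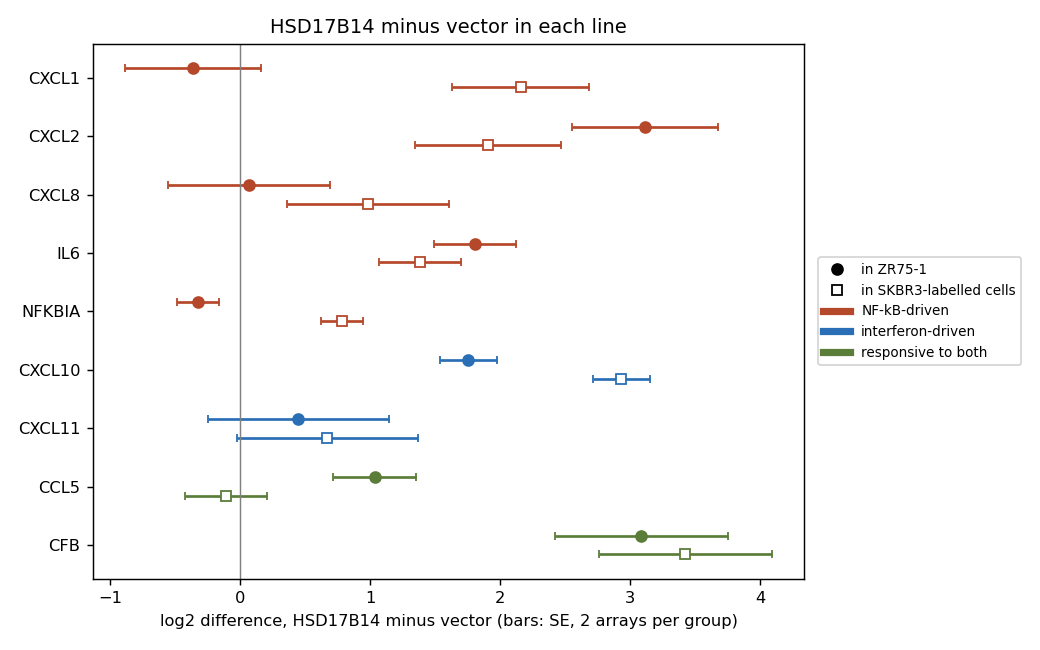
Log2 difference, HSD17B14 minus vector (x axis), for each gene in ZR75-1 (filled circles) and SKBR3-labelled cells (open squares), with limma's SE from 2 arrays per group and colours for the classes. CXCL1 and NFKBIA lie right of 0 in SKBR3-labelled cells and left of 0 in ZR75-1, and CCL5 lies right of 0 in ZR75-1; the ZR75-1 value of CXCL2 rests on signals under the floor.

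The actin 3'/5' ratio, a measure of RNA integrity, was 2.83 and 2.66 with HSD17B14 and 2.03 and 2.02 with vector in ZR75-1. In SKBR3-labelled cells it was 2.28 and 3.09 against 3.60 and 3.0. The GAPDH 3'/5' ratio went the other way in ZR75-1, at 0.90 and 0.88 with HSD17B14 and 1.08 and 1.04 with vector. In SKBR3-labelled cells the GAPDH ratio was 0.81 and 0.89 against 0.91 and 0.87. With the actin ratio as a covariate the ZR75-1 changes of IL6, CXCL10, CCL5 and CFB were 1.98, 1.95, 0.74 and 3.20. The SKBR3-labelled changes of CXCL1, IL6 and CXCL10 were then 2.01, 1.27 and 2.80. Bacillus spike-in signals were high on array 2 of each SKBR3-labelled group and on HSD17B14 array 2 of ZR75-1, and on no array 1. Within the low and high arrays of SKBR3-labelled cells, each 1 against 1, the log2 difference of CXCL10 was 3.14 and 2.72, that of IL6 1.51 and 1.26, that of CXCL1 2.37 and 1.94, and that of NFKBIA 0.59 and 0.98. It was 0.11 and 1.23 for CXCL11 and 1.36 and 0.62 for CXCL8. In ZR75-1 the high arrays hold no control.

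The lines were then compared with each other, first in the vector arrays, which leaves the plasmid out of the difference. ZR75-1 had more CCL5, CXCL10 and NFKBIA, and the SKBR3-labelled cells had more CXCL8, CXCL2 and IL6. CCL5 was 5.78-fold higher in ZR75-1 (log2 2.53 ± 0.32, limma adjusted p = 6.94e-05), CXCL10 4.11-fold (2.04 ± 0.22, limma adjusted p = 2.31e-05) and NFKBIA 3.14-fold (1.65 ± 0.16, limma adjusted p = 9.84e-06). CXCL8 was at least 9.55-fold lower in ZR75-1 (limma adjusted p = 3.14e-06) and CXCL2 at least 2.94-fold lower (limma adjusted p = 2.45e-05). Both passed the filter only through the SKBR3-labelled arrays, where they are high. Without a filter the count of the 9 genes called in the vector arrays was 6, as with it. IL6 was 3.77-fold lower in ZR75-1 (-1.91 ± 0.32, limma adjusted p = 5.21e-04). CXCL1 (0.21 ± 0.52), CXCL11 (0.87 ± 0.70) and CFB (0.56 ± 0.67) did not pass, with limma adjusted p from 0.358 to 0.782 and 95% intervals of -0.94 to 1.36, -0.66 to 2.39 and -0.90 to 2.02. That makes 6 of 9 genes called, 3 in each direction, where limma called 40.2% of all tested probe sets, 19.6% higher and 20.7% lower in ZR75-1.

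With the actin ratio as a covariate CXCL10 and IL6 did not pass in the vector arrays (limma adjusted p = 0.0585 and 0.101), while their log2 differences were 1.73 and -2.18. The ratio was 2.03 and 2.02 in the ZR75-1 vector arrays and 3.60 and 3.0 in the SKBR3-labelled ones. It is thus largely confounded with the line here, and nothing is read about RNA integrity from a lost call. Without ZR75-1 vector array 1, CFB passed with a difference of 1.64 (limma adjusted p = 0.028), and without ZR75-1 vector array 2 it was -0.53.

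In the HSD17B14 arrays the plasmid's changes enter the difference, and the 9 genes were chosen with those changes known. The p-values and counts of the genes in these arrays are therefore a description and no test. CXCL1 joined the genes higher in SKBR3-labelled cells. It was 4.95-fold lower in ZR75-1 (-2.31 ± 0.52, limma adjusted p = 0.00514), while its difference in the vector arrays was 0.21 ± 0.52. CXCL8 was at least 18.9-fold lower (limma adjusted p = 1.94e-06), CXCL2 at least 11.0-fold lower (limma adjusted p = 2.32e-04) and IL6 2.81-fold lower (-1.49 ± 0.32, limma adjusted p = 0.00343). CCL5 was 12.8-fold higher in ZR75-1 (3.67 ± 0.32, limma adjusted p = 5.23e-06). CXCL10 was 1.82-fold higher (0.86 ± 0.22, limma adjusted p = 0.0105) and NFKBIA 1.46-fold higher (0.54 ± 0.16, limma adjusted p = 0.022). CFB (0.22 ± 0.67) and CXCL11 (0.65 ± 0.70) did not pass, with limma adjusted p = 0.845 and 0.528. That makes 7 of 9 genes, 3 higher and 4 lower in ZR75-1, where limma called 33.2% of probe sets, 15.1% higher and 18.1% lower.

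The p-values in the HSD17B14 arrays, a description and no test, moved past 0.05 under the most alternatives for CXCL10 and NFKBIA. CXCL10 did not pass without SKBR3-labelled HSD17B14 array 2 (limma adjusted p = 0.088) or ZR75-1 HSD17B14 array 1 (0.0971). NFKBIA did not pass without SKBR3-labelled HSD17B14 array 1 (0.175), SKBR3-labelled HSD17B14 array 2 (0.0555) or ZR75-1 HSD17B14 array 2 (0.188), nor with median centring (0.0507). CXCL1 did not pass without SKBR3-labelled HSD17B14 array 2 (0.074), and the count without that array was 4.

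**Figure D4:**
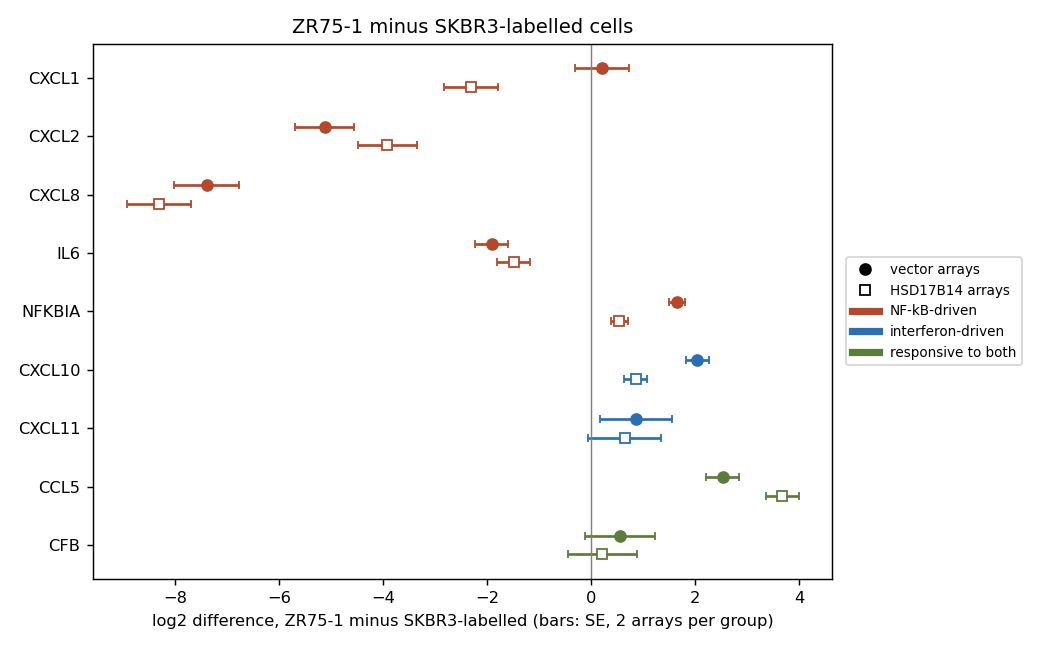
Log2 difference, ZR75-1 minus SKBR3-labelled cells (x axis), for each gene in the vector arrays (filled circles) and in the HSD17B14 arrays (open squares), with limma's SE from 2 arrays per group; colours mark the classes. CXCL8 and CXCL2 lie furthest left, where fitted values rest on ZR75-1 signals under the floor, and CCL5 lies furthest right.

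The receptors of these ligands were mostly at background. CXCR1, CXCR3, CCR2, CCR4 and CCR8 had no array above the floor, and CXCR2 had 1, at 20.1. CXCR4, which binds CXCL12 rather than any ligand above, was measured on all 8 arrays, at 112.8 to 192.9 in SKBR3-labelled cells and 29.5 to 41.5 in ZR75-1. The signal chain of the IL6 receptor, IL6ST, was above the floor on all 8 arrays (18.4 to 40.4) and IL6R on 1. CCR1, a receptor of CCL5, had 21.4 and 23.2 in ZR75-1 with HSD17B14 against 2.5 and 2.7 with vector, and did not pass (limma adjusted p = 0.0895). Of 20 receptors on the array, 7 were tested and limma called 0 in either line, with 1 higher in ZR75-1 and 0 in SKBR3-labelled cells at an unadjusted p under 0.05. The share of all probe sets at that unadjusted threshold is not given, so nothing is read from such counts here or below.

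Other chemokines gave little signal. Of 28 on the array 10 passed the filter, and limma called 0 in either line (0 in ZR75-1 and 1 lower in SKBR3-labelled cells at an unadjusted p under 0.05). CXCL3, a close relative of CXCL1 and CXCL2, had 25.8 and 34.3 with HSD17B14 and 10 and 13.9 with vector in SKBR3-labelled cells. CCL20, another NF-kB target, had 36.3 and 40.8 against 20 and 4.1 there. Both were lower in ZR75-1 in the HSD17B14 arrays (limma adjusted p = 0.0121 and 0.0183). Their signals there were under the floor, at 0.8 and 2.2 for CXCL3 and 3.3 and 3.5 for CCL20. Neither would have passed the filter without the SKBR3-labelled arrays. CCL22, a ligand of CCR4, had 38.9 to 92.1 on the ZR75-1 arrays and 3.9 or less on the others (vector arrays, limma adjusted p = 8.67e-04). It passed the filter only through the ZR75-1 arrays. CXCL9, the third ligand of CXCR3, stayed at 16.1 or less on all 8 arrays.

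Few other NF-kB targets passed the test for the plasmid. Outside the 9 genes, 25 of 33 on the array were tested. In ZR75-1 limma called 1, where it called 1.52% of all probe sets, 0.736% higher and 0.784% lower: BIRC2, an inhibitor of apoptosis, rose from 113.5 and 148.9 to 240.4 and 255.9 (0.93 ± 0.17, limma adjusted p = 0.0296). BIRC2 did not pass with the actin ratio as a covariate, with the spike-in block, with values raised to the floor or with a prior without the mean, nor without either HSD17B14 array of either line or without ZR75-1 vector array 1. In SKBR3-labelled cells limma called 0 of 25 (1 higher and 1 lower at an unadjusted p under 0.05), where it called 0.992% of all probe sets, and 2 of 25 with values raised to the floor. The median log2 change of the 25 was 0.36, and that of all probe sets -0.01. In ZR75-1 it was -0.10 against -0.04. Of 23 tested parts of the pathway itself, such as NFKB1, RELA and the IKK kinases, limma called 0 in both lines. At an unadjusted p under 0.05, 2 were lower in ZR75-1 and 3 higher in SKBR3-labelled cells. In the latter limma called 1 without SKBR3-labelled vector array 2, with log2 of the value plus 32 or with the stricter filter.

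Between the lines in the vector arrays, 9 of the 25 targets were lower in ZR75-1 and 2 higher, where limma called 20.7% and 19.6% of all probe sets. The share called in either direction was near the 40.2% of all probe sets. The median was -0.88 against -0.04. Among the 9, LTB, PLAU, PTX3 and F3 had ZR75-1 signals of 6.4 or less, under the floor. They passed the filter only through the SKBR3-labelled arrays, where they are high. Their fitted differences are no measured folds, and they enter the count and the median. TNFAIP3 (A20), which shuts NF-kB signalling off, had a log2 difference of -2.28 ± 0.24 and BIRC2 of -2.38 ± 0.17, ZR75-1 minus SKBR3-labelled (limma adjusted p = 1.97e-05 and 8.27e-07). The 2 targets higher in ZR75-1 were EFNA1 (1.89 ± 0.20) and LCN2, whose fitted 3.69 ± 0.78 rests on SKBR3-labelled signals under the floor (2.2 and 14). Of 23 tested parts of the pathway itself, limma called 7 higher and 3 lower in ZR75-1, to be set against the same shares of all probe sets. Nothing is read about the pathway from these counts. Among the 7, MYD88, the adaptor of Toll-like and IL1 receptors, was higher by 1.53 ± 0.14 (limma adjusted p = 7.52e-06). The 3 lower were NFKBIE (-1.37 ± 0.29), BCL10 (-1.54 ± 0.36) and MAP3K14 (-1.54 ± 0.49).

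CXCL10 is set beside the interferon-stimulated genes. Their list was chosen with earlier results of these data known, so the counts below are a description and no independent support. Of 25 tested, limma called 22 higher in SKBR3-labelled cells, where it called 0.944% of probe sets higher and 0.048% lower. In ZR75-1 it called 6 higher, where it called 0.736% of probe sets higher and 0.784% lower. The 22 became 4 with a prior without the mean. The medians were 1.78 and 0.46. In SKBR3-labelled cells UBE2L6, an enzyme that attaches ISG15, rose by 2.12 ± 0.13, the membrane protein IFITM1 by 2.17 ± 0.13, OAS1 by 2.58 ± 0.16 and MX1 by 1.89 ± 0.13. In ZR75-1 the 6 were IFI27 (1.33 ± 0.16), IFITM1 (1.05 ± 0.13), IFITM3 (1.11 ± 0.16), IFI6 (0.97 ± 0.18), IFIT3 (0.68 ± 0.13) and UBE2L6 (0.66 ± 0.13). The count of 6 was 0 without ZR75-1 HSD17B14 array 1, 0 with the actin ratio as a covariate or a prior without the mean, 3 with median centring or the spike-in block, and 3 without either ZR75-1 vector array or either SKBR3-labelled HSD17B14 array. The change was smaller in ZR75-1 by the test of the difference for 12 of 25, where limma called 0.624% of all probe sets, 0.56% lower and 0.064% higher. That count was 3 and 5 without SKBR3-labelled HSD17B14 array 1 and 2, 5 and 4 without ZR75-1 HSD17B14 array 1 and 2, and 7 without ZR75-1 vector array 1. It was 6 with values raised to the floor, 3 with median centring, and 0 with the actin ratio as a covariate or a prior without the mean.

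In SKBR3-labelled cells limma called 0.944% of all probe sets higher, the share to set beside the calls there that follow. Of 17 tested genes of interferon signalling, limma called USP18, which removes ISG15 and restrains the receptor, and IRF7 higher in SKBR3-labelled cells (2.02 ± 0.19 and 0.99 ± 0.18). The count was 0 with a prior without the mean, 1 with the actin ratio as a covariate or values raised to the floor, and 1 without either SKBR3-labelled HSD17B14 array, SKBR3-labelled vector array 2 or ZR75-1 HSD17B14 array 1. It called 0 in ZR75-1 (2 higher at an unadjusted p under 0.05). IRF7 also stands in the list of interferon-stimulated genes. Of 14 tested genes of IL6 signalling and the acute phase, SERPINA3, a protease inhibitor induced by IL6, was the 1 called in SKBR3-labelled cells (1.18 ± 0.23, limma adjusted p = 0.0293). Its signals there were 34.8 and 34 with vector and 73.9 and 82 with HSD17B14. In ZR75-1 they were 82.2 and 92.3 with vector and 144.6 and 161.8 with HSD17B14, and it did not pass (limma adjusted p = 0.0894), while without ZR75-1 vector array 1 the list's count there was 1. SERPINA3 did not pass in SKBR3-labelled cells with median centring, quantile normalization, the actin ratio as a covariate, only the groups compared or a prior without the mean, nor without either HSD17B14 array of either line or without SKBR3-labelled vector array 1. Of 17 tested complement genes other than CFB, limma called 0 in either line, with 1 higher in each at an unadjusted p under 0.05.

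**Figure D5:**
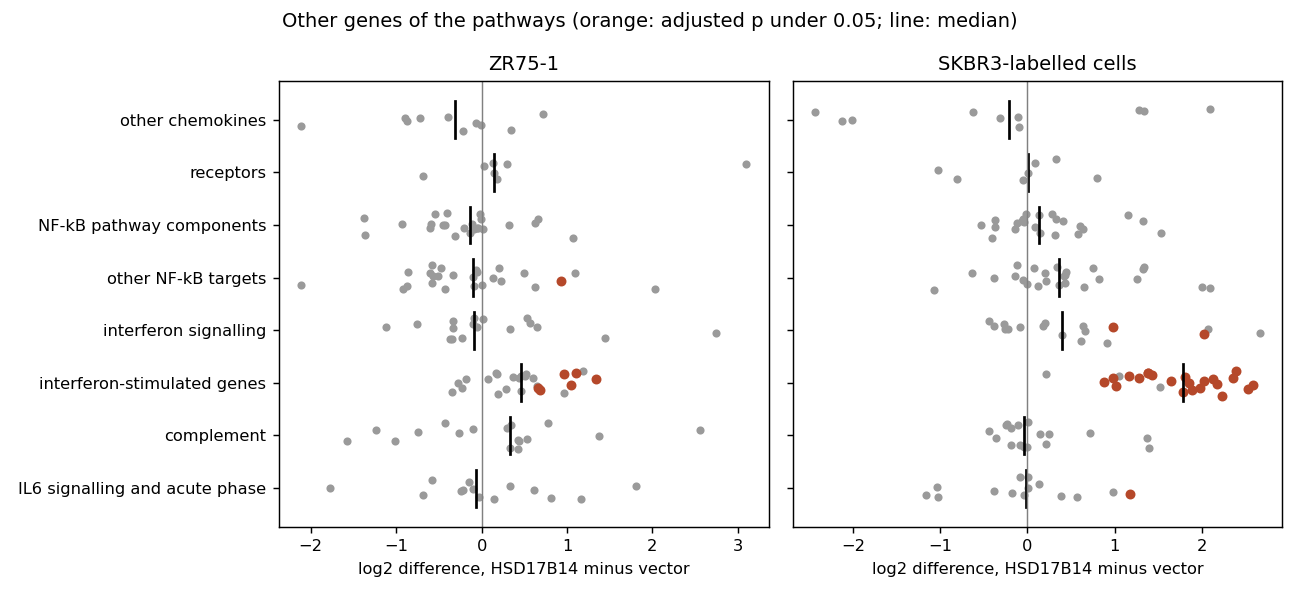
Log2 difference, HSD17B14 minus vector (x axis), for every tested gene of 8 lists (rows) in ZR75-1 (left) and SKBR3-labelled cells (right); orange points passed limma at an adjusted p under 0.05 and black bars are medians. Orange points gather in the interferon-stimulated genes, 22 of 25 in SKBR3-labelled cells and 6 of 25 in ZR75-1. The lists were chosen with earlier results of these data known.

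The genes whose log2 signal followed that of CXCL10 most closely over the 8 arrays were IFI6 (Pearson's r = 0.979), UBE2L6 (0.975), PSMB9 (0.969), IFI27 (0.959) and NMI (0.959). For NFKBIA, the brightest gene of the NF-kB-driven class, they were EFNA3 (0.991), IGFBP2 (0.982), MYD88 (0.976), TLE2 (0.974) and IL17RA (0.969). These r values come from 5540 candidate genes and 4 groups of 2 arrays, so they describe the order of the groups. The genes near CXCL10 had changes above 0 in both lines (0.42 to 1.33 in ZR75-1 and 1.35 to 2.12 in SKBR3-labelled cells). Those near NFKBIA had changes below 0 in ZR75-1 and above 0 in SKBR3-labelled cells. In the latter EFNA3 lay under the floor on all 4 arrays (1.2 to 7.9) and IGFBP2 on both vector arrays (1.4 and 0.7), so their fitted changes there are no measured folds. MYD88, well above the floor on all 8 arrays, had -0.31 and 0.63. Genes picked for following an anchor take its signs, so nothing is read from these directions.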

How the data were processed

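HG-Focus arrays of 8 RNA samples were analysed. The deposited values are MAS5 signal intensities on a linear scale, per the submitters' processing notes, which give no version, and every array has the same trimmed mean of 100.1. The file has no detection calls. Of 8746 probe sets without controls, 7840 carry 1 gene symbol. Values below 1 were raised to 1 and log2 was taken. Probe sets above their array's 40th percentile on at least 2 arrays were tested (6251). limma 3.58.1 in R 4.3.3 fitted 4 group means with a mean-dependent prior, and Benjamini-Hochberg adjustment ran over all 6251. The code was tested on simulated data. In place of detection, signals were set against 17.6, the largest 40th percentile of any array. Where a whole group lay under this floor, a fold is a lower bound against it.

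The genes, their classes and the lists were chosen with earlier results of these data known. The rule named the 9 genes, fixed receptors, every list member called in a plasmid comparison (the 4 with the largest moderated t where over 6 were called) and the 5 closest patterns to the brightest gene of each class. Other genes named from a list were chosen after their values were seen. Alternatives were a filter at the 60th percentile or none, median centring, quantile normalization, values raised to the floor, log2 of the value plus 32, a prior without the mean, only the groups compared, replicate number, spike-in level, the actin 3'/5' ratio, and leaving out each array. Promoter windows came from RefSeq on GRCh38.p14. Plots used matplotlib 3.10.9 in Python 3.11.15.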

Additional observations from a re-analysis of the deposited data

Results flagged for a closer look

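NFKBIA stood apart because its signal went down on every ZR75-1 array with HSD17B14 and up on every SKBR3-labelled array with it, relative to the vector arrays of the same line. The difference of the log2 changes, ZR75-1 minus SKBR3-labelled, was -1.11 ± 0.23, and it was not tested, since the gene was chosen with these changes known. It ran from -1.30 to -0.92 when each array was left out and from -1.38 to -0.98 under the other alternatives. Groups of 2 arrays are too small for a check of single outlying arrays.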

How the results depend on the processing

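The count of probe sets called for the plasmid in ZR75-1 (95) was 262 with log2 of the value plus 32, 152 with only the groups compared, 62 without a filter, 23 with median centring, 19 with the spike-in block, 13 with a prior without the mean and 1 with the actin covariate, and 8 to 135 when an array was left out (8 without ZR75-1 HSD17B14 array 1). Median centring moved the median over all probe sets from -0.04 to 0.16 and the split from 46 higher and 49 lower to 18 and 5. In SKBR3-labelled cells (62) it was 37 with the actin covariate and 9 with a prior without the mean, and 40 to 125 when an array was left out. For the difference of the changes (39) it was 67 with log2 of the value plus 32, 20 without a filter, 7 with median centring and 0 with the actin covariate or a prior without the mean, and 5 to 42 when an array was left out. The line difference in vector arrays (2516) was 571 with the actin covariate and 2154 to 2494 when an array was left out. In HSD17B14 arrays (2074) it was 1361 to 2199 when an array was left out. Of the 9 genes, 6 to 7 and 4 to 7 were called when an array was left out. CXCL10 and NFKBIA in HSD17B14 arrays also did not pass with a prior without the mean (limma adjusted p = 0.063 and 0.12). The difference of the changes needs all 4 groups and had no value with only the groups compared. Direction turned for differences that had not passed: CXCL1 in vector arrays to -0.13 with the actin covariate, -0.16 without SKBR3-labelled vector array 1 and -0.13 without ZR75-1 vector array 2, and CXCL11 to -0.014 without SKBR3-labelled vector array 2. CFB turned to -0.53 in vector arrays without ZR75-1 vector array 2, and in HSD17B14 arrays to -0.02 without SKBR3-labelled HSD17B14 array 2 and -0.068 without ZR75-1 HSD17B14 array 1. Over all single arrays left out, the ranges in vector arrays were -0.16 to 0.58 for CXCL1, -0.014 to 1.75 for CXCL11 and -0.53 to 1.64 for CFB, and -0.068 to 0.51 for CFB in HSD17B14 arrays. The difference of the CXCL2 changes turned from 1.21 to -1.01 with log2 of the value plus 32 and -1.91 with values raised to the floor, as its ZR75-1 signals lie under it, and that of IL6 from 0.42 to -0.17 with log2 of the value plus 32. The cause of the other shifts was not tested. The actin ratio did not overlap between the plasmid groups of ZR75-1 or between the lines in the vector arrays. In those comparisons the actin covariate is largely confounded with plasmid or line. With the replicate number as a block the counts were 104, 67, 42, 2523 and 2056, and no call among the 9 genes changed. Deviations of arrays with the same number correlated at -0.04 to 0.06, which shows no pairing by number. Spike-in signals, however, were high only on arrays numbered 2, in all groups but ZR75-1 with vector. Pairing by number was therefore neither shown nor excluded. In ZR75-1, CXCL2 and CXCL8 are limited by signals under the floor. Lists with 0 calls for the plasmid had 1 in ZR75-1 for complement with values raised to the floor and for receptors with a prior without the mean, and 1 in SKBR3-labelled cells for other chemokines with values raised to the floor.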

Other observations

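Of 17 tested complement genes other than CFB, 3 were higher and 3 lower in ZR75-1 in the vector arrays, a share below the 40.2% that limma called of all probe sets, so nothing is read about complement genes as a list. Of those called, the adipsin gene CFD, whose product cleaves factor B, was higher in ZR75-1 (204.4 and 217.5 against 23.7 and 19.6; log2 3.29 ± 0.28, limma adjusted p = 3.10e-06), as was CLU, a complement-binding chaperone (4.10 ± 0.32, limma adjusted p = 1.63e-06). C4BPB, a chain of an inhibitor of the classical pathway, was higher in SKBR3-labelled cells (321.1 and 443.2 against 27.7 and 3.4; log2 -5.28 ± 0.77, limma adjusted p = 2.17e-04), as was the membrane inhibitor CD59 (-1.52 ± 0.16, limma adjusted p = 1.51e-05). C4BPB passed the filter only through the SKBR3-labelled arrays, where it is high. Its fitted difference rests in part on the ZR75-1 signal of 3.4, under the floor. C3, the substrate on which factor B acts, had signals of 6.3 to 27.3 on the 8 arrays.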
